A study of Mus musculus with 15 samples.

Results

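The genes described here encode 10 chains of the receptors through which stromal cells sense cytokines of immune cells: Il6st, Osmr, Lifr and Il11ra1 of the gp130 family, Il1r1 of the IL-1 family, Il4ra and Il13ra1 for IL-4 and IL-13, Il17ra for IL-17, Ifngr1 for interferon gamma and Tnfrsf1a for TNF. They were chosen by symbol, and all 10 were among the 10222 gene symbols of the deposited table. RNA was sequenced from 5 populations sorted by flow cytometry, with 3 libraries of each and 15 in all, each replicate coming from its own experiment. All mice were heterozygous for the IL33-citrine reporter, in which a fluorescent protein is placed under the control of the Il33 gene, on a C57BL/6 background, and no group lacked the reporter. No treatment is named, and the age and sex of the mice, and whether animals were pooled, are not given in the sources used here.

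The WAT stromal populations came from mesenteric fat and shared a gate of CD45-, EpCAM-, CD31- and CD24- cells with PDGFRα, CD34, Sca1 and podoplanin on their surface. They were divided by citrine into Il33+ WAT-MSC and Il33- WAT-MSC, where MSC stands for multipotent stromal cells. The other populations were citrine-positive stromal cells of the lung (lung Il33+ MSC), CD31+ endothelial cells of WAT and EpCAM+ epithelial cells of the lung. Epithelial cells of WAT and citrine-negative stromal cells or endothelial cells of the lung were not analysed here, so in the comparison of WAT stroma with lung epithelium the tissue and the cell type cannot be told apart. RNA was amplified before sequencing, and in bulk samples fewer cells that use a gene and less RNA per cell cannot be told apart.

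Each of these receptors is built from more than 1 chain. Il6st encodes gp130, the shared signalling chain that pairs with OSMR to bind oncostatin M, with LIFR to bind leukaemia inhibitory factor, and with IL-11Rα or IL-6Rα to bind IL-11 or IL-6, and it passes the signal through JAK kinases to STAT3. IL-4Rα and IL-13Rα1 together form the type II receptor for IL-4 and IL-13, which acts through STAT6, whereas IL-4Rα with the common gamma chain forms the type I receptor of lymphoid and myeloid cells. IL1R1, IL-17RA and TNFR1 act through adaptor proteins to NF-κB, and the interferon gamma receptor, made of IFNGR1 and IFNGR2, acts through JAK1 and JAK2. Stromal cells of fat and lung are known to respond to such cytokines by making IL-6, chemokines and matrix proteins.

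Il33 was the gene the citrine gate reports on, and its level checks the labels. It ranged from 38.7 to 78.5 RPKM (read number divided by transcript length and by the mapped reads of the library) in Il33+ WAT-MSC, from 43.0 to 55.7 in lung Il33+ MSC, from 4.31 to 6.76 in Il33- WAT-MSC, from 15.1 to 21.4 in endothelial cells and from 3.92 to 6.4 in epithelial cells. The 9 stromal markers looked for, Pdgfra and Col1a1 among them, summed to between 3954 and 8324 RPKM in the stromal libraries and to between 143 and 230 in the epithelial libraries. In the endothelial libraries they summed to 1811, 2082 and 3756 RPKM, and the median stromal marker stood there at 33.6 to 65.0% of its level in Il33+ WAT-MSC. The 8 endothelial markers summed to between 483 and 548 RPKM in endothelial cells and to between 13.3 and 57.1 in stroma. The endothelial libraries thus carried the RNA of their own markers and also a large amount of stromal marker RNA. The 8 epithelial markers took 58.6 to 63.3% of the summed RPKM of each epithelial library and at most 0.273% of any other, and RPKM of other genes falls where a few genes take a large share. Alignments ranged from 42711843 to 60773158 per library. Replicate 1 of the endothelial cells and replicate 1 of Il33- WAT-MSC stood apart from the rest, with 10.9 and 7.41% of the listed transcripts at 0 against at most 5.8% elsewhere, and differences that they move by much are given without them as well.

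Lifr was the receptor gene that differed most between the WAT stromal populations, and the table lists 2 transcripts of it with different starts and ends. In the RefSeq annotation of the mouse genome (GRCm38, the same assembly as mm10, which the submitters' processing notes name) Lifr lies on chromosome 15 at 7090610 to 7197489, on the plus strand, and Osmr lies beside it at 6813568 to 6874968, with 215641 bases and no protein-coding gene between them. The full-length transcript encodes 1092 amino acids and the shorter 719, and they share 14 exons, after which the shorter one runs into an exon of its own with a stop codon. The bases at that fork are shown because they separate the membrane receptor from the form that ends early. Lower case marks the last 30 shared coding bases, chr15:7184789-7184818, and capitals mark the bases that follow, which are chr15:7185566-7185595 in the full-length transcript and chr15:7185067-7185074, ending in the stop codon, in the shorter one.
Lifr full-length transcript: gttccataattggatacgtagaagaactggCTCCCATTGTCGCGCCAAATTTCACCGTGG
Lifr shorter transcript: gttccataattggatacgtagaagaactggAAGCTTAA

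The transcripts also start 10970 bases apart, and the 250 bases before each start are shown to let a reader compare the promoters. The start of the full-length transcript follows chr15:7140292-7140541, which holds 3 CpG dinucleotides, 50.8% G and C, and 1 CCAAT box, in capitals. The start of the shorter transcript follows chr15:7129322-7129571, which holds 43 CpG dinucleotides and 82.4% G and C, against medians of 6.0 and 52.4% over the 32851 promoters in the RefSeq table.
Lifr upstream of the full-length transcript: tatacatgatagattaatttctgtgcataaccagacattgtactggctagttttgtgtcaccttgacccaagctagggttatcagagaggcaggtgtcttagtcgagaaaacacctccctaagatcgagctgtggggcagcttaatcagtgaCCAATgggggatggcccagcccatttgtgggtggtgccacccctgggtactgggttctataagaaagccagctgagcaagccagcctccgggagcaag
Lifr upstream of the shorter transcript: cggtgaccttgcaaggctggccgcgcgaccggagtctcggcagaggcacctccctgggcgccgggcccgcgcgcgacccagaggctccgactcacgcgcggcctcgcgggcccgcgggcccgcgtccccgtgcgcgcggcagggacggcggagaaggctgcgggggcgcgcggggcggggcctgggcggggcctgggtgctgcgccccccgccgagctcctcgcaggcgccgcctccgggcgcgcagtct
Over the 12 such windows found for 9 of the 10 genes, searched on both strands, the letters TTCNNNGAA, read by STAT factors, stood in 1, before Tnfrsf1a, and in 7.0% of all promoters. TATAAA stood in 0 windows and 12.4% of all promoters, and CCAAT in 6 windows and 33.8%. These matches describe the letters only.

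Of the 4 receptor genes of the gp130 family described here, Lifr was the only one called between the WAT stromal populations. Its level was 30.3, 37.2 and 31.3 RPKM in Il33- WAT-MSC and 10.7, 10.1 and 9.89 in Il33+ WAT-MSC. In lung Il33+ MSC it was 7.16, 6.31 and 4.27, in endothelial cells 10.7, 14.9 and 12.2, and in epithelial cells 6.97, 3.69 and 2.48 RPKM. All 3 libraries of Il33- WAT-MSC lay above all other libraries of the study, and lung stroma and epithelium were the only neighbours in the order of the means whose libraries overlapped, although the lowest endothelial library was level with the highest of Il33+ WAT-MSC.

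Between the WAT stromal populations the difference of Lifr was -1.59 on the scale of log2(RPKM + 1), Il33+ minus Il33- (SE 0.23, n = 3 and 3; limma, Benjamini-Hochberg adjusted p = 0.00614), which is a level 0.33 times that of Il33- WAT-MSC. It was -1.60 within sequencing lane 1, with 2 libraries of each population, and -1.57 within lane 2, with only 1 of each. Summed markers of other cells moved with this comparison: 6 mesothelial markers summed to between 35.3 and 116 RPKM in Il33+ and 20.8 and 35.7 in Il33- WAT-MSC, with Upk3b, Krt19 and Upk1b at 0 in at least 1 Il33- library, and 6 pericyte markers to between 29.9 and 37.0 and between 3.68 and 13.3. The median pericyte marker stood at 16.5, 56.5 and 117% of its Il33+ WAT-MSC level in the Il33- libraries. Mcam was below 1 RPKM in all 3 Il33+ libraries but not in all 3 Il33- libraries, so the lower pericyte sum was not shared by every marker. The 7 leukocyte markers in the table summed to between 13.1 and 29.3 RPKM in Il33+ and 42.8 and 84.0 in Il33- WAT-MSC, with Cd52 and Tyrobp at 0 in at least 1 library of each. The part of the mesothelial, pericyte and leukocyte markers in the differences between these populations was not tested. Lifr was the only one of the 10 receptor genes past the threshold of 0.05 in this comparison, in which 1.57% of the 8448 genes tested were called. It stayed past the threshold in every alternative run at the level of the gene, each left-out library included. The full-length transcript gave a difference of -1.61 (limma, adjusted p = 0.0113), from 28.6, 33.6 and 28.7 RPKM in Il33- WAT-MSC and 9.26, 10.0 and 8.37 in Il33+ WAT-MSC. The shorter transcript, at 1.66, 3.60 and 2.59 against 1.45, 0.05 and 1.52 RPKM, differed by -0.92 and did not pass (limma, adjusted p = 0.479).

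Against endothelial cells, Lifr was higher in Il33- WAT-MSC by 1.32 (SE 0.29; limma, adjusted p = 0.0283), where 5.69% of 8713 genes were called. That call did not survive median-ratio scaling (1.12, adjusted p = 0.0536 by limma) or 5 of the 6 single left-out libraries (differences of 1.23 to 1.44), each of which also leaves fewer libraries in the fit. Without replicate 1 of the endothelial cells Lifr still passed. Il33+ WAT-MSC and endothelial cells did not differ past the threshold in Lifr (-0.27, 95% interval -0.93 to 0.40). Over epithelium, Il33+ WAT-MSC had an excess of 1.15 (limma, adjusted p = 0.0211), and it was 0.85 with an adjusted p of 0.118 by limma after median-ratio scaling. It was 0.51 within lane 1, with 2 stromal libraries against epithelial replicate 1 alone, and 1.43 within lane 2, with 1 against 2. The call was lost without Il33+ WAT-MSC replicate 1 or 3 or epithelial replicate 2 or 3, with differences of 0.88 to 1.17. Epithelial replicate 1 carried 77.8% of its Lifr RPKM as the shorter transcript, at 5.42 RPKM, whereas in every other library of the study the full-length transcript made up at least 83.9%. With the full-length transcript alone, Lifr was higher in both citrine-positive stromal populations than in epithelium, by 1.64 in WAT (limma, adjusted p = 0.00215) and by 0.96 in lung (limma, adjusted p = 0.0401), whereas the summed gene did not pass in lung (0.42, 95% interval -0.36 to 1.21). The transcripts share most of their exons, so reads could be assigned to the wrong one.

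**Figure D1:**
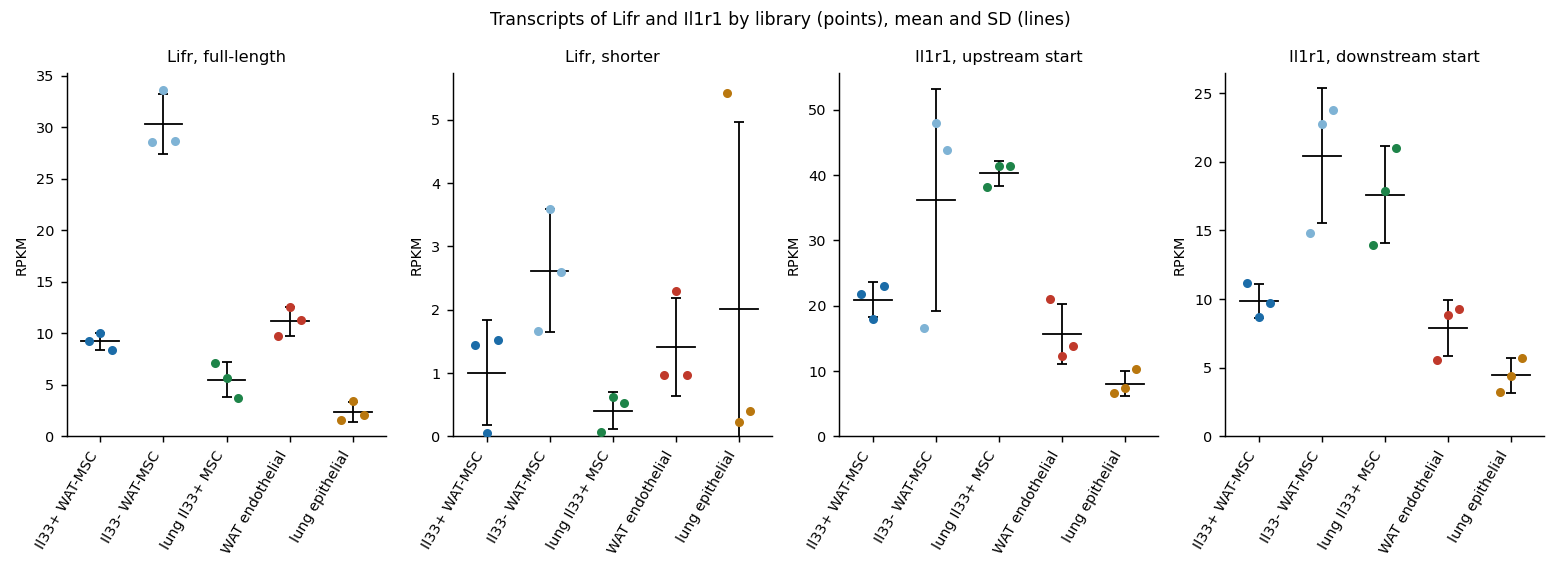
RPKM of the listed transcripts of Lifr and Il1r1 (y axis, 1 scale per panel) in the 5 populations (x axis), with 1 point per library and lines for the mean and SD of 3 libraries; the SD line of the shorter Lifr transcript in epithelium runs below the axis. The full-length Lifr transcript lies between 28.6 and 33.6 RPKM in Il33- WAT-MSC and at or below 12.6 elsewhere, and the shorter one is highest in 1 epithelial library at 5.42.

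Il6st, the shared chain, was the most abundant of the 10 genes in every population by its mean, with 133, 96.4 and 119 RPKM in Il33+ WAT-MSC and 68.4, 94.2 and 92.3 in Il33- WAT-MSC. It reached 187, 182 and 107 RPKM in lung Il33+ MSC and 157, 130 and 125 in endothelial cells, against 23.6, 36.9 and 27.5 in epithelial cells. The epithelial libraries lay below all others, and lung stroma, endothelium and Il33+ WAT-MSC overlapped as neighbours. Il33+ WAT-MSC lay above Il33- WAT-MSC in all 3 libraries, by a difference of 0.45 (95% interval -0.06 to 0.95) that did not pass (limma, adjusted p = 0.505). Against epithelium Il6st was higher by 1.96 in Il33+ WAT-MSC (SE 0.24; limma, adjusted p = 0.000147) and by 2.38 in lung Il33+ MSC (SE 0.28; limma, adjusted p = 0.000105).

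Osmr, the oncostatin M chain, had overlapping levels in stroma and endothelium. It stood at 33.9, 50.2 and 30.9 RPKM in Il33+ WAT-MSC, 40.8, 65.3 and 51.0 in Il33- WAT-MSC, 31.2, 33.4 and 51.0 in lung Il33+ MSC, 41.2, 41.3 and 38.9 in endothelial cells, and 6.02, 8.51 and 11.3 in epithelial cells. The 4 populations other than epithelium overlapped, and none of the 4 comparisons fitted among them passed by limma, with 95% intervals of -1.03 to 0.14 between the WAT stromal populations and of -0.57 to 0.56 for Il33+ WAT-MSC against those of the lung. Osmr was higher than in epithelium by 2.04 in each citrine-positive stromal population (limma, adjusted p = 0.000419 for WAT and 0.000316 for lung). The 2 listed Osmr transcripts had almost equal values in each library, at 49.2 to 51.2% of the sum, and their coding parts differ by 1 codon of 971, so the sum may count reads in both.

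Because Osmr and Lifr both pair with gp130, their balance within a library is a ratio that needs no scaling between libraries. Osmr was 1.35 to 1.75 times Lifr in the 3 libraries of Il33- WAT-MSC, 3.12 to 4.99 times in Il33+ WAT-MSC, 2.78 to 3.84 times in endothelial cells and 4.36 to 11.9 times in lung Il33+ MSC. In epithelial cells it was 0.864 to 4.55 times, a range that covered that of Il33- WAT-MSC. If the Osmr sum counts reads in both transcripts, the ratio is too high, and 1 Osmr transcript over the full-length Lifr transcript gave 0.701 to 0.989 in Il33- WAT-MSC, so which gene was the higher there depended on the counting, and 1.21 to 6.79 over the libraries of the other populations. The ratio of Lifr to Il6st was 0.339 to 0.442 in Il33- WAT-MSC, 0.0808 to 0.104 in Il33+ WAT-MSC, 0.0346 to 0.0400 in lung Il33+ MSC, 0.0684 to 0.114 in endothelial cells and 0.0902 to 0.296 in epithelial cells, so that no library of another population reached the range of Il33- WAT-MSC.

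Il11ra1, the IL-11 chain, ranged from 11.4 to 34.9 RPKM in Il33+ WAT-MSC and from 20.8 to 29.99 in Il33- WAT-MSC, and no difference between them passed (-0.07, 95% interval -0.88 to 0.75). It was 42.3, 35.5 and 44.9 RPKM in lung Il33+ MSC, 10.6, 16.01 and 19.97 in endothelial cells and 1.47, 4.86 and 7.63 in epithelial cells. The lung stromal libraries lay above those of all other populations and the epithelial libraries below. The difference from epithelium, 3.06 in lung Il33+ MSC (SE 0.41; limma, adjusted p = 0.000252) and 2.26 in Il33+ WAT-MSC (SE 0.52; limma, adjusted p = 0.00686), was the largest of the 10 genes in lung. Il11ra1 has a near-identical copy, Il11ra2, on the same chromosome, which was not analysed here, so reads of the copies may have been assigned to one another and these values are uncertain.

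Il1r1, the signalling receptor of IL-1, was 33.0, 26.6 and 32.7 RPKM in Il33+ WAT-MSC, 31.5, 70.8 and 67.6 in Il33- WAT-MSC, and 52.0, 59.2 and 62.5 in lung Il33+ MSC. Endothelial cells had 26.5, 21.0 and 23.2 RPKM and epithelial cells 9.79, 11.7 and 16.1. All stromal libraries lay above all endothelial and all epithelial libraries, and Il1r1 was the only one of the 10 genes of which this could be said for endothelium (1 of 10, against 3.11% of the 9981 genes with at least 1 RPKM in at least 3 of the 15 libraries). The lowest stromal library, at 26.57 RPKM, was nearly level with the highest endothelial one, at 26.5. Il33+ WAT-MSC and endothelial cells did not differ past the threshold in Il1r1 (0.37, 95% interval -0.22 to 0.96; limma, adjusted p = 0.539). Il1r1 was lower in Il33+ WAT-MSC than in lung Il33+ MSC by a difference of -0.89 (SE 0.19; limma, adjusted p = 0.0172) and was the only receptor gene called there, where 6.0% of 8554 genes were called. The difference was -0.79 within lane 1, with 2 WAT libraries against 1 of lung, and -0.87 within lane 2, with 1 against 2. Leaving out any 1 of the lung Il33+ MSC libraries ended the call, with differences of -0.97 to -0.84 and adjusted p of 0.0513 to 0.115 by limma, as did fitting all 15 libraries together (adjusted p = 0.126 by limma).

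Between the WAT stromal populations, Il1r1 differed by -0.78 (95% interval -1.45 to -0.10), which did not pass over all genes (limma, adjusted p = 0.345). Replicate 1 of Il33- WAT-MSC, at 31.5 RPKM, lay within the range of Il33+ WAT-MSC while its other libraries lay above it, and without that library the difference was -1.15 and passed (limma, adjusted p = 0.0279). Il33- WAT-MSC lay above endothelial cells in all libraries, by 1.15 (limma, adjusted p = 0.116). Without replicate 1 of both populations that difference was 1.60 (limma, adjusted p = 0.0155). Of the 2 transcripts, which start 41506 bases apart and encode 576 and 573 amino acids, the one with the upstream start made up 53.0 to 79.1% of the sum in each library. In the comparison of Il33+ WAT-MSC with lung Il33+ MSC that transcript differed by -0.92 (limma, adjusted p = 0.0232) and the downstream one by -0.77 (limma, adjusted p = 0.109).

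The chains for IL-4 and IL-13 had the lowest means of the 10 genes in the 3 WAT populations, and they differed in where they were high. Il4ra was 3.75, 4.90 and 4.33 RPKM in Il33+ WAT-MSC, 2.42, 5.8 and 3.57 in Il33- WAT-MSC, 6.89, 7.96 and 8.01 in lung Il33+ MSC, 11, 11.8 and 10.3 in endothelial cells and 0.66, 3.44 and 1.94 in epithelial cells. Il13ra1 was 1.75, 4.19 and 2.95 RPKM in Il33+ WAT-MSC, 1.72, 2.95 and 3.56 in Il33- WAT-MSC, 1.23, 1.43 and 2.47 in lung Il33+ MSC, 6.94, 2.62 and 1.91 in endothelial cells and 4.47, 8.48 and 6.43 in epithelial cells. The endothelial libraries were the 3 highest of the study for Il4ra, whereas for Il13ra1 the epithelial mean was the highest and the lung stromal mean the lowest.

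Lung Il33+ MSC had more Il4ra than lung epithelium, by 1.63 (SE 0.36; limma, adjusted p = 0.00531), and less Il13ra1, by a difference of -1.45 (SE 0.31; limma, adjusted p = 0.00431). Il13ra1 was the only one of the 10 genes that was lower in stroma than in epithelium in a call, and its difference in Il33+ WAT-MSC was -0.92 (limma, adjusted p = 0.0586). Without Il33+ WAT-MSC replicate 2 or without epithelial replicate 1 that difference passed, at -1.14 and -1.13 (limma, adjusted p = 0.0364 and 0.0372). It passed in 4 of 13 alternatives, which gave differences of -1.17 to -0.68. Il4ra differed there by 0.93 (limma, adjusted p = 0.0841), and by 1.26 without epithelial replicate 2 (limma, adjusted p = 0.0454). That Il4ra difference passed in 3 of 13 alternatives, which gave differences of 0.55 to 1.32. Within each epithelial library Il13ra1 was 2.47 to 6.77 times Il4ra, and in each stromal library it was 0.179 to 0.997 times Il4ra. Against endothelium Il4ra differed by -1.18 in Il33+ WAT-MSC (95% interval -1.90 to -0.46; limma, adjusted p = 0.0944) and by -1.34 in Il33- WAT-MSC (-2.20 to -0.48; limma, adjusted p = 0.0850), with no overlap of libraries in either. When all 15 libraries were fitted together both differences passed (limma, adjusted p = 0.0457 and 0.0176). Among all the alternatives the difference passed in 1 of 14 for Il33+ and in 2 of 15 for Il33- WAT-MSC.

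Il17ra, the chain shared by receptors of the IL-17 family, ranged from 25.8 to 32.8 RPKM in Il33+ WAT-MSC, from 19.2 to 40.6 in Il33- WAT-MSC and from 41.3 to 61.6 in lung Il33+ MSC. In endothelial cells it was 4.38, 20.3 and 18.4 RPKM, with replicate 1 far below the others, and in epithelial cells 2.13, 6.03 and 10.4. All 9 stromal libraries lay above the epithelial ones. The difference from epithelium was 2.31 in Il33+ WAT-MSC (SE 0.42; limma, adjusted p = 0.00187) and 2.98 in lung Il33+ MSC (SE 0.42; limma, adjusted p = 0.000369). Against endothelium the difference in Il33+ WAT-MSC was 1.26 (95% interval 0.12 to 2.40; limma, adjusted p = 0.269). Without endothelial replicate 1 it was 0.62 (limma, adjusted p = 0.267), and that in Il33- WAT-MSC went from 1.07 to 0.43. Lung Il33+ MSC lay above Il33+ WAT-MSC in all libraries, with a difference of -0.67 for WAT minus lung that did not pass (limma, adjusted p = 0.116).

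Ifngr1, the ligand-binding chain for interferon gamma, was 21.1, 25.7 and 28.7 RPKM in Il33+ WAT-MSC and 40.5, 35.3 and 29.5 in Il33- WAT-MSC, with no overlap. That difference, -0.46 (95% interval -0.98 to 0.05), did not pass (limma, adjusted p = 0.491). It ranged from 14.5 to 27.5 RPKM in lung Il33+ MSC, from 9.89 to 32.5 in endothelial cells and from 8.60 to 10.8 in epithelial cells, and the endothelial range overlapped those of all 3 stromal populations. Without endothelial replicate 1 the difference of Il33+ WAT-MSC from endothelium was 0.02, against 0.43 with it, and that of Il33- WAT-MSC was 0.48 against 0.89, and none of these passed by limma. Against epithelium Ifngr1 was higher by 1.27 in Il33+ WAT-MSC (SE 0.23; limma, adjusted p = 0.00182) and by 1.01 in lung Il33+ MSC (SE 0.26; limma, adjusted p = 0.0124), the latter lost without lung Il33+ MSC replicate 2 or 3 (limma, adjusted p = 0.0533 and 0.0552).

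Tnfrsf1a, the gene of TNFR1, differed widely between libraries of the same population. It was 12.9, 13.4 and 14.8 RPKM in Il33+ WAT-MSC, 10.3, 35.2 and 33.8 in Il33- WAT-MSC, 23.4, 17.7 and 20.5 in lung Il33+ MSC, 3.2, 25.5 and 26.4 in endothelial cells and 12.6, 5.94 and 5.63 in epithelial cells. Replicate 1 of Il33- WAT-MSC and of endothelial cells, the libraries with the most transcripts at 0, lay far below the others of their populations. Between the WAT stromal populations the difference was -0.72 (95% interval -1.60 to 0.16; limma, adjusted p = 0.542), and without replicate 1 of Il33- WAT-MSC it was -1.27 and passed (limma, adjusted p = 0.0217). Between Il33+ WAT-MSC and endothelial cells it was 0.02 with all libraries and -0.88 without endothelial replicate 1 (limma, adjusted p = 0.111). Lung Il33+ MSC exceeded epithelium by 1.32 (SE 0.31; limma, adjusted p = 0.00649, and 0.102 in the fit of all 15 libraries). In Il33+ WAT-MSC the difference from epithelium was 0.78, and 1.11 without epithelial replicate 1, when it passed (limma, adjusted p = 0.00717).

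**Figure D2:**
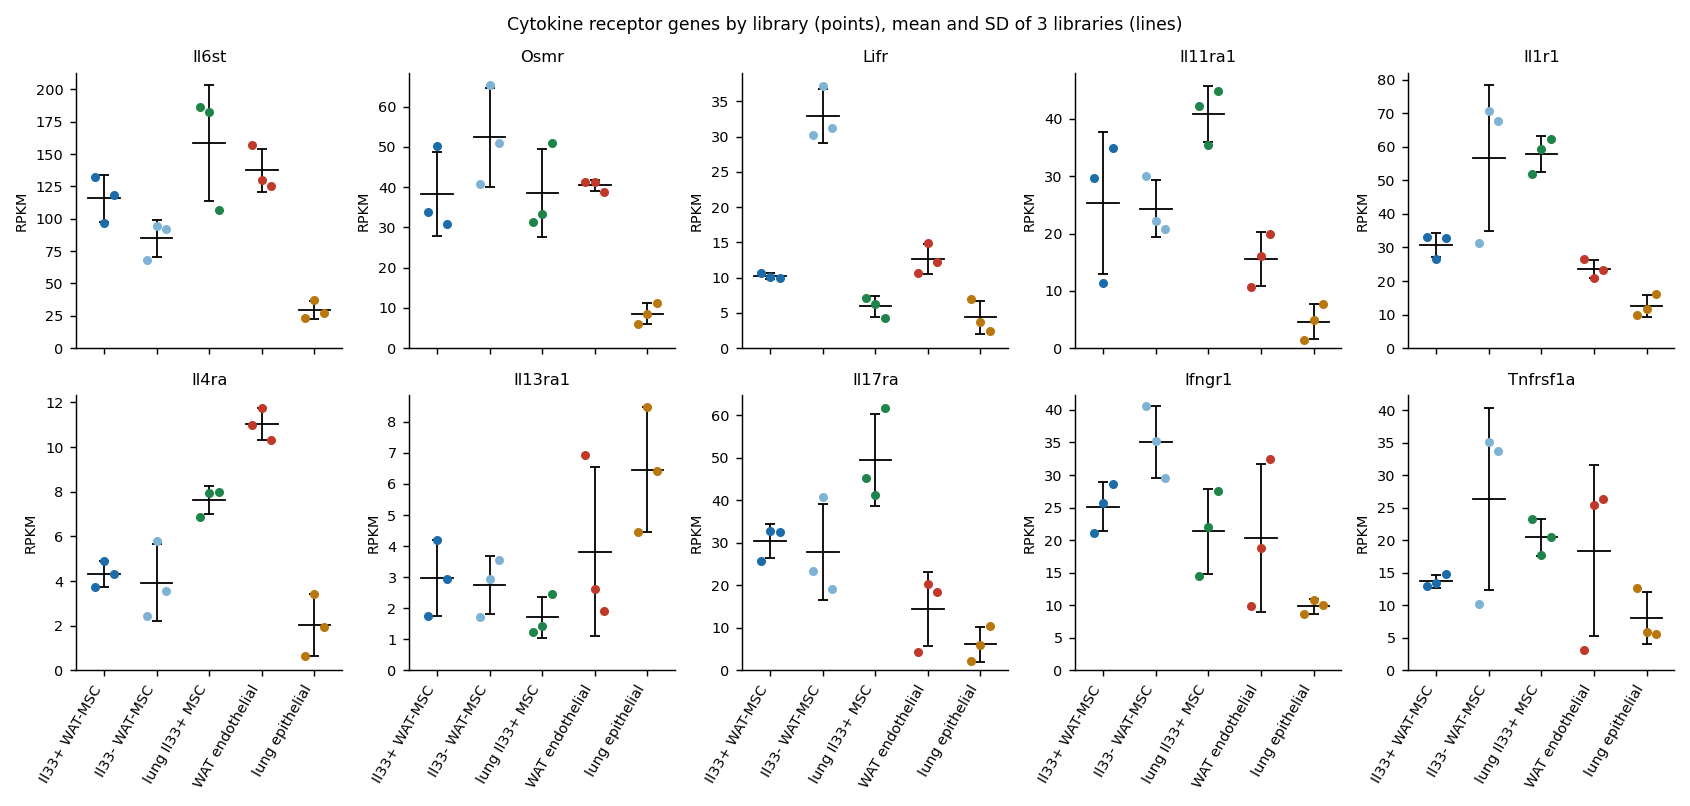
RPKM summed over the transcripts of each of the 10 receptor genes (y axis, 1 scale per panel) in the 5 populations (x axis), with 1 point per library and lines for the mean and SD of 3 libraries. Lifr is highest in the 3 libraries of Il33- WAT-MSC, Il4ra in those of endothelium, and Il13ra1 has its highest mean in epithelium.

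Counted together, most of the genes were called higher in stroma than in lung epithelium, and 1 of them was called against WAT endothelium. The mean of each stromal population exceeded the epithelial mean for 9 of the 10 genes, all but Il13ra1, and exceeded the endothelial mean for 4, which were Il11ra1, Il1r1, Il17ra and Ifngr1. For Ifngr1 this depended on endothelial replicate 1, at 9.89 RPKM against 18.7 and 32.5. Without that library the Ifngr1 difference of Il33+ WAT-MSC from endothelium was 0.02. For 6 of the 10 genes all 9 stromal libraries lay above all 3 epithelial libraries, against 19.5% of the 9981 genes. The highest of the 5 means was in Il33- WAT-MSC for 4 genes (Osmr, Lifr, Ifngr1 and Tnfrsf1a), in lung Il33+ MSC for 4 (Il6st, Il11ra1, Il1r1 and Il17ra), in endothelium for Il4ra, in epithelium for Il13ra1 and in Il33+ WAT-MSC for 0. For the other 6 genes at least 1 stromal mean lay below the endothelial mean. Shares over all genes were not worked out for these counts of means, which are a description only. All 10 genes passed the filter on low values in every comparison.

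In the comparison of Il33+ WAT-MSC with lung epithelium 7 of the 10 genes were called, all higher in stroma, where 41.0% of 9267 genes were called and 23.0% were called higher in stroma. The median difference of the 10 genes was 1.26, beside 0.17 over all genes tested. In the comparison of lung Il33+ MSC with lung epithelium 9 of the 10 were called, 8 of them higher in stroma, where 43.0% of 9352 genes were called and 24.4% were called higher in stroma, and the median difference was 1.84 beside 0.13. Of the genes called in the WAT comparison 2128 were higher and 1672 lower in stroma, and after median-ratio scaling, which lowers the weight of a few abundant genes, 1706 were higher and 2105 lower, with the median of all genes at -0.08. Under that scaling the counts of receptor genes called stayed at 7 and 9, with Il13ra1 gained as lower and Lifr lost in WAT. The epithelial markers, at 58.6 to 63.3% of the summed RPKM, moved with this contrast, and leukocyte markers, 7 of the 9 looked for, summed to between 865 and 1739 RPKM in epithelial libraries, 203 and 216 in lung Il33+ MSC and 13.1 and 84.0 in WAT stroma. Most of that was Lyz2 and Cd74, which alveolar epithelium also makes, and the other 5 summed to between 51.0 and 58.3 RPKM in epithelium, 27.7 and 43.0 in lung Il33+ MSC and 7.46 and 38.9 in WAT stroma. None of the 7 was at 0 in an epithelial library, and the part of leukocytes in the result was not tested.

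Against WAT endothelium 0 of the 10 genes were called in Il33+ WAT-MSC by limma over all genes, where 3.9% of 8665 genes were called. In Il33- WAT-MSC 1 of 10, Lifr, was called, where 5.69% of 8713 genes were. At an unadjusted p under 0.05, 2 of the 10 differed in Il33+ WAT-MSC, Il4ra and Il17ra, a count for which the share of all genes was not worked out. The fit of all 15 libraries called 1, Il4ra, with 805 of the 8665 genes called. The median difference of the 10 genes was -0.04 in Il33+ WAT-MSC beside 0.18 over all genes, and 0.69 in Il33- WAT-MSC beside 0.17. Without endothelial replicate 1 the median over all genes was 0.01 in each of these comparisons, and that of the 10 genes was not worked out. Stromal markers were present in all 3 endothelial libraries, 9 of 9 with none at 0, and pericyte markers summed to between 196 and 265 RPKM there against 3.68 to 37.0 in WAT stroma. Mesothelial markers summed to 52.5, 163 and 200 RPKM in the endothelial libraries, against 35.3 to 116 in Il33+ and 20.8 to 35.7 in Il33- WAT-MSC. The part of these markers in the comparison was not tested.

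**Figure D3:**
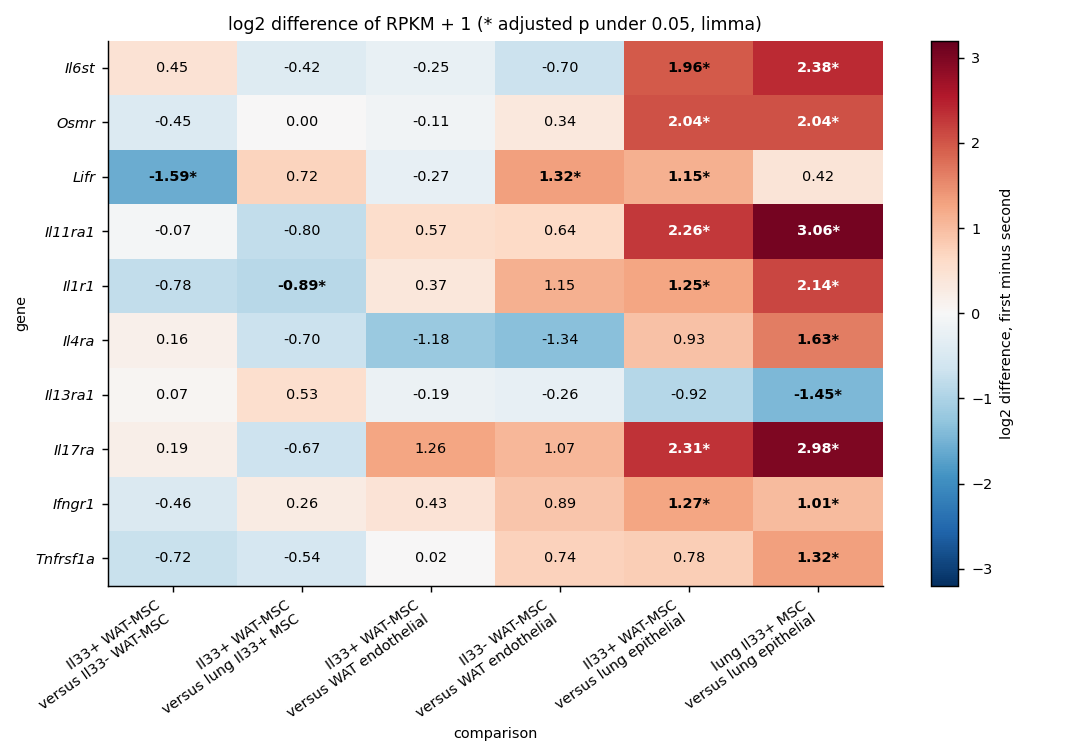
Differences of the 10 receptor genes (rows) in 6 comparisons (columns) as log2(RPKM + 1), first population minus second, red for higher in the first and blue for lower, with an asterisk for a limma adjusted p below 0.05. Calls gather in the 2 comparisons with lung epithelium, with 7 and 9 of the 10 genes, and Lifr and Il1r1 are the only calls among the 4 other comparisons.

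The partner and sister chains bear on which complete receptors the libraries could hold RNA for. Of 10 such chains looked for, 6 were in the table, and Il11ra2, Il1r2, Il13ra2 and Il17rc were not analysed here. Il6ra, the IL-6 binding chain, was 16.7, 33.5 and 25.8 RPKM in Il33+ WAT-MSC and 21.9, 28.5 and 24.8 in Il33- WAT-MSC, and it lay between 14.98 and 18.6 in lung Il33+ MSC and between 14.3 and 16.9 in epithelial cells. In endothelial cells it was 2.66, 12.6 and 12.9 RPKM, below both WAT stromal populations in all libraries, by 1.52 and 1.55, which did not pass (limma, adjusted p = 0.204 and 0.142), and by 0.88 and 0.91 without endothelial replicate 1 (limma, adjusted p = 0.213 and 0.108). Il6ra thus had a level in epithelium close to that in lung stroma (difference 0.07, 95% interval -0.40 to 0.53), where Il6st was higher in stroma by 2.38.

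Il2rg, the common gamma chain, was 1.20, 3.06 and 1.54 RPKM in Il33+ WAT-MSC, 0.00, 1.11 and 1.43 in Il33- WAT-MSC, 7.40, 3.93 and 4.76 in lung Il33+ MSC, 36.3, 17.9 and 20.2 in endothelial cells and 20.8, 7.08 and 4.21 in epithelial cells. It was lower than in endothelium by a difference of -3.12 in Il33+ WAT-MSC (SE 0.41; limma, adjusted p = 0.00363) and of -3.84 in Il33- WAT-MSC (SE 0.48; limma, adjusted p = 0.00186). Endothelial cells thus had the highest means of both chains of the type I receptor, Il4ra and Il2rg, and the second highest of Il13ra1. That Il13ra1 mean rested on endothelial replicate 1, at 6.94 RPKM against 2.62 and 1.91. Without this library the Il13ra1 difference from endothelium went from -0.19 to 0.24 in Il33+ WAT-MSC. In Il33- WAT-MSC it went from -0.26 to 0.17, and none of these passed by limma. Leukocytes also use Il2rg, and the 7 leukocyte markers summed to 284, 434 and 251 RPKM in the endothelial libraries, against 13.1 to 84.0 in WAT stroma, of which Cd74 made up 272, 264 and 186. Without Cd74 and Lyz2 the other 5 summed to 4.11, 75.9 and 26.0 RPKM. Without endothelial replicate 1 the differences of Il2rg still passed (-2.82 and -3.54; limma, adjusted p = 0.00428 and 0.00323). The part of leukocytes in the Il2rg levels was not tested.

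Cntfr, the chain for ciliary neurotrophic factor that works with Lifr and Il6st, was at or below 0.41 RPKM in epithelial cells and between 5.71 and 9.24 in lung Il33+ MSC, higher by 2.94 (SE 0.29; limma, adjusted p = 3.96e-05). It ranged from 1.82 to 6.18 RPKM in Il33+ WAT-MSC, 2.46 to 11.3 in Il33- WAT-MSC and 0.56 to 6.87 in endothelial cells, all overlapping. Il1rap, the accessory chain that Il1r1 needs to signal, was low, with means of 2.08 ± 0.919 RPKM in Il33+ WAT-MSC, 1.85 ± 0.600 in Il33- WAT-MSC and 4.26 ± 1.17 in lung Il33+ MSC (SD, n = 3). It was higher in lung Il33+ MSC than in epithelium by 1.00 (limma, adjusted p = 0.0252), and all 3 lung stromal libraries lay above those of Il33+ WAT-MSC, which did not pass (-0.80; limma, adjusted p = 0.246). Ifngr2 ranged only from 5.25 to 15.9 RPKM outside 1 epithelial library at 1.75, and no comparison of it passed. Tnfrsf1b, the gene of TNFR2, was 11.9 ± 1.93 RPKM in Il33+ WAT-MSC and 5.45 ± 2.77 in epithelium (SD, n = 3). The difference was 1.09 (95% interval 0.29 to 1.88; limma, adjusted p = 0.0339). That of Tnfrsf1a was 0.78 and did not pass (95% interval 0.07 to 1.49; limma, adjusted p = 0.0777), and the 2 intervals overlapped. Without epithelial replicate 1 Tnfrsf1a differed by 1.11 and passed (limma, adjusted p = 0.00717).

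**Figure D4:**
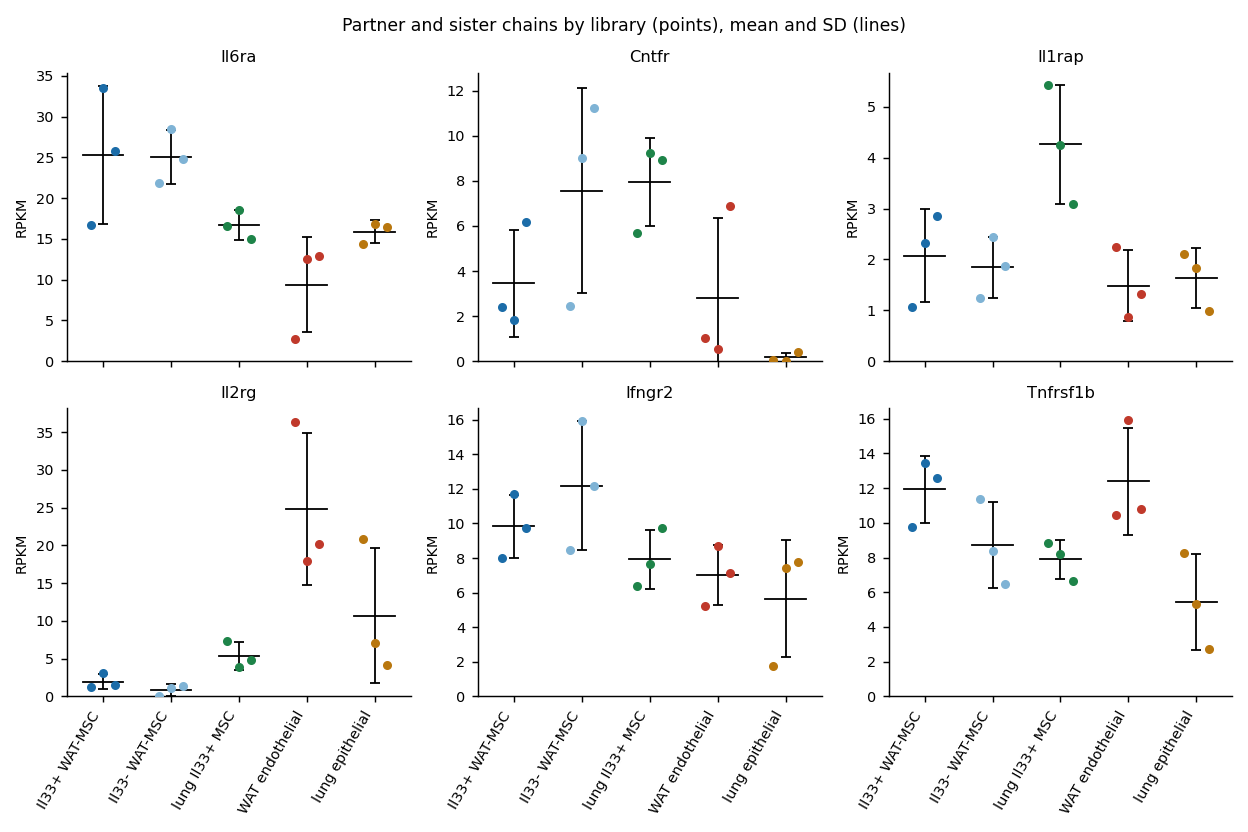
RPKM of 6 partner and sister chains (y axis, 1 scale per panel) in the 5 populations (x axis), with 1 point per library and lines for the mean and SD of 3 libraries. Il2rg has its highest mean in endothelium, where it runs from 17.9 to 36.3 RPKM and overlaps 1 epithelial library at 20.8, and Cntfr is at or below 0.41 in the 3 epithelial libraries.

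Of 148 further genes of these pathways, 94 were in the table, with ligands least often (6 of 21). Between Il33+ and Il33- WAT-MSC 1 of the 82 tested was called, where 1.57% of all genes were, and it was Lepr, the gp130-like receptor of leptin, which lay at 4.75, 6.47 and 6.4 RPKM against 0.12, 1.42 and 1.05 and was higher in Il33+ WAT-MSC by 1.95 (SE 0.38; limma, adjusted p = 0.0309), and by 1.62 without replicate 1 of Il33- WAT-MSC (limma, adjusted p = 0.0455). The call was lost without Il33- WAT-MSC replicate 3 or any 1 library of Il33+ WAT-MSC, with differences of 1.88 to 2.07 and adjusted p of 0.0761 to 0.151 by limma. Lepr and Lifr thus differed in opposite directions between these populations. None of the 8 JAK and STAT genes, 17 adaptors and kinases, 17 inhibitors and shedding enzymes or 15 target genes tested passed by limma, with list medians of -0.30, -0.10, 0.06 and 0.35 beside -0.01 over all genes, and 1, 1, 4 and 4 of them had an unadjusted p under 0.05. How many of all genes had such a p was not worked out. In the comparison of Il33+ WAT-MSC with lung Il33+ MSC 6 of 81 were called, a share near the 6.0% of all genes. Tnfrsf11b, the decoy receptor osteoprotegerin, was higher in WAT by 2.79 (limma, adjusted p = 0.0116) and was at or below 0.11 RPKM in lung Il33+ MSC. Lower in WAT were Lepr (-2.02), the death receptor Fas (-1.42), the IL-1 receptor antagonist Il1rn (-1.18), the NF-κB inhibitor Tnfaip3 (-1.20) and the protease inhibitor Timp1 (-1.63), a target of gp130 cytokines. Their adjusted p by limma were 0.000418, 0.0225, 0.0353, 0.0204 and 0.0351.

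Against endothelium 4 of 83 were called in Il33+ WAT-MSC, a share near the 3.9% of all genes, with the cytokine gene Il6 higher by 1.33 (limma, adjusted p = 0.0347) and the eosinophil chemoattractant Ccl11 by 1.66 (limma, adjusted p = 0.0398), and with Il2rg and Tnfrsf10b lower. Il6 was 94.8, 160 and 133 RPKM in Il33+ WAT-MSC and 45.6, 47.4 and 56.8 in endothelial cells. Without endothelial replicate 1 neither gene passed, with Il6 at 1.27 and Ccl11 at 1.37 (limma, adjusted p = 0.0603 and 0.073). In Il33- WAT-MSC 7 of 83 were called, beside 5.69% of all genes, with Ccl11 higher by 2.74 (limma, adjusted p = 0.00294), the IL-17 family ligand Il17d by 1.90 (limma, adjusted p = 0.0375), and Lepr (-2.88), Il2rg, Tnfrsf10b (-2.55), the signalling inhibitor Socs2 (-1.79) and the iron carrier Lcn2 (-3.19) lower. Without replicate 1 of Il33- WAT-MSC the adjusted p by limma of Socs2, Lcn2 and Tnfrsf10b were 0.125, 0.13 and 0.0623, and Il17d was under the filter on low values.

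Against lung epithelium more of the pathway genes were called higher than lower in stroma. In Il33+ WAT-MSC 39 of the 86 tested were higher and 11 lower, where 23.0% of all genes were called higher and 41.0% in either direction, with a median of 0.86 beside 0.17 over all genes, and in lung Il33+ MSC 41 of 87 were higher and 9 lower, where 24.4% of all genes were called higher and 43.0% in either direction, with a median of 0.86 beside 0.13. Of the JAK and STAT genes 3 of 8 were higher in both, Jak1 by 2.18 and 1.63, Stat3 by 0.63 and 0.86, and Stat5b by 1.22 and 1.44. Stat6, which IL-4Rα uses, was 7.88 ± 3.60 RPKM in Il33+ WAT-MSC, 9.98 ± 1.69 in lung Il33+ MSC and 6.94 ± 1.13 in epithelium (SD, n = 3) and did not pass in either. Of the adaptors and kinases 8 of 17 were higher and 1 lower in WAT, and 7 and 1 in lung, with Myd88, the adaptor of IL-1 receptors, higher by 1.85 and 2.04 and Irak2 lower by differences of -1.93 and -1.15. Of the target genes 11 of 16 were higher in WAT and 14 of 17 in lung, and Lcn2 alone was lower in each. The chemokine genes Ccl11 and Cxcl1 were among them, by 6.04 and 5.64 and by 5.53 and 5.24. Socs3, the inhibitor that gp130 signalling induces, stood at 155, 190 and 152 RPKM in Il33+ WAT-MSC and 17.2, 17.6 and 21.7 in epithelium, higher by 3.07 (limma, adjusted p = 3.96e-06).

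Receptor chains of the lists that were lower in stroma than in epithelium came from several families. Il18r1, the IL-18 receptor of the IL-1 family, was 73.1, 52.7 and 71.8 RPKM in epithelial cells and at or below 1.59 in every library of the other populations, with differences of -4.96 in Il33+ WAT-MSC (limma, adjusted p = 1.72e-06) and -5.53 in lung Il33+ MSC (limma, adjusted p = 7.01e-07). The interferon lambda receptor Ifnlr1 and the IL-22 receptor Il22ra1, both known from epithelia, were lower by differences of -2.09 and -2.01 in WAT and of -2.20 and -2.24 in lung. Of the TNF family Tnfrsf21 was lower by -2.15 in WAT and -2.54 in lung, and Il2rg by -1.78 in WAT (limma, adjusted p = 0.0198).

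Finally, the patterns over the 15 libraries were set beside those of all 9981 genes, as Pearson's r of log2(RPKM + 1). The libraries fall into 5 populations, so such a value mostly restates which populations are high and is given as a description. For Lifr the closest genes were Plau, which encodes urokinase (r = 0.963), Thsd7a (0.951) and Itpripl2 (0.939). For Osmr they were Rhoj (0.970), the intermediate filament gene Vim (0.962) and the macrophage growth factor gene Csf1 (0.960), and for Il1r1 Trabd2b (0.971), Arf4 (0.938) and Lrp3 (0.936). For Il6st they were Mcc (0.963), Olfr1033 (0.963) and Tmtc1 (0.959), for Il17ra Pamr1 (0.962), Sec63 (0.941) and Clec11a (0.940), and for Il11ra1 the imprinted gene Peg3 (0.951), Sod3 (0.946) and Egr1 (0.945). Il4ra was closest to Sbno2 (0.941), Il13ra1 to Sypl (0.904), Ifngr1 to Tubb5 (0.939) and Tnfrsf1a to Grina (0.917). The type I interferon receptor chain Ifnar2 came next for Tnfrsf1a (0.907), and like it was low in endothelial replicate 1, at 11.03 RPKM against 53.9 and 39.8.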

How the data were processed

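Cells were sorted into 5 populations and RNA of 3 libraries of each was amplified (Ovation), sequenced and aligned with TopHat2 in Partek to mm10, per the labels and the study's methods. The authors deposited RPKM values for 12698 RefSeq transcripts with the alignments of each library, 42711843 to 60773158. RPKM divides by transcript length and mapped reads. Read counts were not used here, and if RPKM was divided by these alignments, 1 RPKM over 1 kb stands for 42.7 to 60.8 reads. Low transcripts had mostly been left out, by a filter not given in the sources used here: 41 were below 1 RPKM in every library. How reads shared by transcripts were counted is also not given.

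RPKM was summed per symbol. Differences were fitted with limma 3.58.1 (lmFit, eBayes with trend) in R 4.3.3 on log2(RPKM + 1), which understates changes of low genes, keeping a gene if 3 or more of the 6 libraries reached 1 RPKM, and p was adjusted over all genes tested by Benjamini-Hochberg with a threshold of 0.05. The fit was checked on simulated data. An exact permutation test of 3 against 3 cannot go below 0.1. Groups came from the sample titles, and 0 value columns lacked a sample. Other steps used Python 3.11.15. Lane 1 held 8 libraries and lane 2 held 7, with each population in both.

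The genes given are the 10 receptor genes, 10 partner chains, up to 3 genes in each direction per pathway list with the largest difference among those called without overlap of libraries, and the 3 genes closest in pattern, with some others of the lists added after their values were seen (Stat6). The genes and lists were chosen with earlier results of these data known. Coordinates and sequences are from RefSeq and GENCODE M21 (GRCm38). Alternatives were a replicate block, a lane term, 1 fit of all libraries, median-ratio scaling, a pseudocount of 0.1, no filter, a minimum of 5 RPKM, the most abundant transcript and each library left out.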

Additional observations from a re-analysis of the deposited data

How the results depend on the processing

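With 3 libraries per population, calls depend on single libraries. Leaving out each in turn, the receptor genes called ranged from 1 to 3 between the WAT stromal populations (3 without Il33- WAT-MSC replicate 1), 0 to 1 for Il33+ WAT-MSC against lung Il33+ MSC, 0 to 0 for Il33+ and 0 to 1 for Il33- WAT-MSC against endothelium, and 6 to 9 and 8 to 9 for WAT and lung stroma against epithelium. All genes called ranged from 49 to 121, 191 to 447, 56 to 261, 140 to 414, 2364 to 3066 and 2835 to 3300 in the same order, against 133, 513, 338, 496, 3800 and 4019 with all libraries, and these fits hold fewer libraries.

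The fit of all 15 libraries, which shares 1 estimate of the spread, called 0 receptor genes and 336 genes in all for WAT against lung stroma, 1 and 805 for Il33+ WAT-MSC against endothelium, and 3 and 1030 for Il33- WAT-MSC against endothelium. Without the filter 45 genes were called between the WAT stromal populations. Without replicate 1 of both Il33- WAT-MSC and endothelium, chosen after seeing the data, 2 receptor genes were called. The replicate block called 232 genes between the WAT stromal populations, and it changed no call of a receptor gene except that Il13ra1 passed for Il33+ WAT-MSC against epithelium. The numbers do not pair the samples by a source used here: the deviations of same-numbered libraries correlated by 0.07, 0.01, 0.03, 0.10, -0.03 and 0.09 on average, and in 3 of the 6 comparisons all 3 libraries correlated best with their own number.

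Only differences that had not passed changed sign, apart from the shorter Lifr transcript in Il33+ WAT-MSC against epithelium (-0.26; transcripts were added after seeing the data). With single libraries left out, the differences between the WAT stromal populations ranged from -0.36 to 0.41 for Il11ra1 (also 0.09), -0.07 to 0.42 for Il4ra, -0.15 to 0.31 for Il13ra1 and -0.03 to 0.49 for Il17ra. Osmr against lung stroma ranged from -0.21 to 0.21 (also 0.07 and 0.13), and was 0.01 by its most abundant transcript. For Il33+ WAT-MSC against endothelium the ranges were -0.31 to 0.03 for Osmr, -0.48 to 0.24 for Il13ra1 (also 0.05) and -0.88 to 0.48 for Tnfrsf1a (also -0.04, and -0.16 by median-ratio scaling). For Il33- WAT-MSC they were -0.55 to 0.17 for Il13ra1 (0.39 without replicate 1 of both) and -0.15 to 1.29 for Tnfrsf1a. The cause was not tested. Counting error could not be given, since read counts were not used.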
